A study of Mus musculus with 3 samples.

Results

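Granule proteases of neutrophils are held in check by inhibitors made in the same cells, and 7 such inhibitor genes were followed here among the 27998 genes of the matrices: the serpins Serpinb1a and Serpinb6a, Slpi, Wfdc21, the cystatins Cst3 and Cst7, and Timp2. They were chosen by name, with earlier results of these data known, and all 7 were detected. Neutrophil precursors fill their first granules with the serine proteases neutrophil elastase (Elane), proteinase 3 (Prtn3) and cathepsin G (Ctsg) and with myeloperoxidase (Mpo) at the promyelocyte stage, and stop making these mRNAs as they mature. Serpins trap serine proteases by a conformational change, cystatins block cysteine cathepsins, and TIMPs block matrix metalloproteinases such as those of the late granules. Each inhibitor was therefore measured along a scale of Mpo mRNA and set against Elane in the same cells.

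The cells were CD133+ cells sorted from bone marrow of C57BL/6 mice, with 3 mice pooled in each library, and mRNA of single cells was counted by unique molecular identifiers (UMIs), which count each captured molecule once. The young library is labelled 3 months of age, the library labelled Ctrl also 3 months, and the old library 27 months, while the design text of the series gives 18.5 months for the old mice. The same text calls the cells intestinal, whereas every sample label names bone marrow, and no label says how the Ctrl library (control here) differs from the young one. Neither genotype nor treatment is given for any of the 3 libraries, and sex is not given in the labels. Each condition was 1 library, so no difference between libraries has a replicate check and no test was made. Intervals are exact at 95% and cover counting error only.

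After filters and after setting aside cells with markers of other blood lineages, 6264 young, 9609 control and 9553 old cells remained, with 63641432, 94395738 and 118130844 UMIs. The share of cells set aside was 15.1% in the young library, 1.75% in the control and 1.32% in the old library. The remaining cells were led by neutrophil lineage genes. Camp, Ngp, Ltf, Lcn2 and Chil3 together took 113481 to 131787 UMIs per 1000000 UMIs (CPM). Prom1, which encodes CD133, was at 45.9 to 52.7 CPM. Of the endothelial markers, Cdh5 had 5, 1 and 0 UMIs in the young, control and old cells, and 5 such markers together came to 1.58 to 2.98 CPM, so the cells are described here by their granulocyte genes. Between 120 and 161 cell barcodes were shared by any pair of libraries.

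Cells were placed in 5 bands by Mpo UMIs per 10000 UMIs: under 2, 2 to under 10, 10 to under 30, 30 to under 100, and 100 or more. The band of 100 or more held 516 young, 283 control and 91 old cells, and the band under 2 held 1165, 1396 and 2322. Elane was at 28678 CPM in the highest Mpo band and 930.0 CPM in the lowest in the young library, at 28457 and 1262 CPM in the control, and at 23308 and 766.6 CPM in the old library. It was thus 30.8-fold, 22.6-fold and 30.4-fold lower in the lowest band. Prtn3 was 14.4- to 22.6-fold lower and Ctsg 40.8- to 52.9-fold lower there. The bands therefore run from protease-rich to protease-poor cells in every library.

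Elane mRNA in the 2 lowest bands has to be read against cells that should not make it. In the young library 116 cells with B progenitor markers had 4316 CPM of Elane (95% interval 4196 to 4439) and 69 cells with markers of NK and T cells had 3341 CPM, both above the 930.0 and 1717 CPM of the 2 lowest bands. At 3000 UMIs per cell, 85.3% of the B progenitors and 91.3% of the NK and T cells had an Elane UMI, compared with 89.0% and 92.1% of cells in the 2 lowest young bands (98.6% to 99.1% of the cells set aside before thinning). Median depth was 8906.5 and 8891 UMIs in the cells set aside and 9005 and 9485 in these bands. In the control and old libraries the types set aside with at least 10 cells had 4768 to 8004 and 1037 to 6948 CPM of Elane. The level depended on how such cells were picked. Young clusters set aside whole, before the limits on UMIs per cell, had 2237 CPM (B progenitors), 1407 (NK and T cells) and 891.2 (erythroid cells). Clusters with markers of monocytes had 2197 CPM, of basophils and mast cells 1639, and of dendritic cells 794.1 and 4901. Some of these lay below the lowest band. The young B progenitors and NK and T cells also had more Mpo, at 1602 and 972.1 CPM, compared with 107.5 CPM in the lowest young band. Elane in the 2 lowest bands can thus hold background, in a share that was not tested. Ratios to Elane there are described only as ratios. The B progenitors carried, per 100 Elane UMIs, 17.2 UMIs of Serpinb1a, 0.369 of Serpinb6a, 10.7 of Slpi, 11.1 of Cst3, 1.54 of Cst7, 42.5 of Wfdc21 and 0.123 of Timp2. If all Elane in the lowest young band came with these proportions, it would bring 72.0% of the Cst7 level there, 23.5% of Slpi, 23.0% of Cst3, and 5.64% to 12.7% of the other 4 members.

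**Figure D1:**
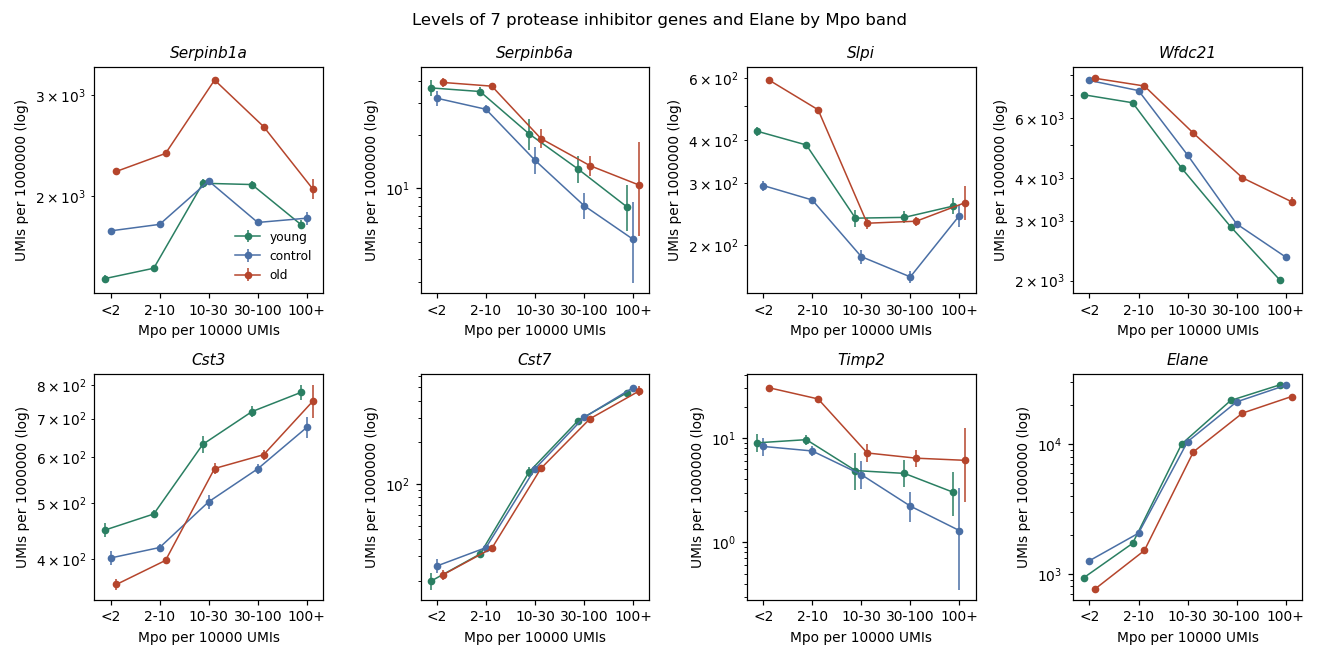
UMIs per 1000000 UMIs (log axes) of the 7 inhibitor genes and of Elane in the 5 bands of Mpo UMIs per 10000 UMIs, with 95% Poisson intervals, for the young, control and old library. Serpinb6a and Wfdc21 run downward toward the bands rich in Mpo in all 3 libraries, Cst3, Cst7 and Elane run upward, and Serpinb1a has its peak at 10 to under 30.

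With a limit of 2-fold in the same direction in all 3 libraries, 2 of the 7 inhibitors were higher in the lowest than in the highest Mpo band, Serpinb6a and Wfdc21, where 4.22% of the 5759 genes tested were. Only Cst7 was lower by this limit, as were 31.6% of all genes tested. Timp2 was past 2-fold in each library but below the minimum of 10 CPM in the young and control libraries. The median gene lay at a log2 difference of -0.74 in the young, -0.71 in the control and -0.79 in the old library on this scale, and the median of the 7 inhibitors was 0.71, 0.29 and 1.16. Without the 50 genes with the most UMIs in the denominator, these medians of all genes became 0.10, 0.13 and -0.04, and 13.2% of genes were higher and 11.2% lower. Slpi then joined the inhibitors higher in the lowest band. The highest band of the old library depended on which cells were set aside. When whole groups of cells with markers of other lineages were set aside, as first planned, it held 24 in place of 91 cells, all 7 inhibitors moved by over 1.5-fold in the old library, and Wfdc21 was no longer past the limit.

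Serpinb1a, located at chr13:32842092-32851185 on the minus strand (GRCm38, as all positions here), encodes the mouse counterpart of SERPINB1, a cytosolic serpin that inactivates elastase, proteinase 3 and cathepsin G. Its level varied little over the bands, over which Elane differed at least 22.6-fold. In the young library it was at 1434, 1495, 2106, 2095 and 1783 CPM from the lowest to the highest Mpo band, in the control at 1738, 1784, 2125, 1798 and 1829 CPM, and in the old library at 2209, 2374, 3192, 2645 and 2059 CPM. All 3 libraries had their highest level in the band of 10 to under 30. The lowest band differed from the highest by a log2 value of -0.31 (interval -0.35 to -0.28) in the young, -0.074 (-0.12 to -0.03) in the control and 0.10 (0.04 to 0.16) in the old library. The direction rests on scaling, since without the 50 top genes the values were 0.53, 0.77 and 0.85. With whole groups set aside the old value was -0.65. Its near copies Serpinb1b and Serpinb1c had at most 6 UMIs in any library, so few reads were assigned to these copies.

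Serpinb6a (chr13:33917918-34002794, minus strand) encodes a cytosolic serpin known to inhibit cathepsin G. It was a low mRNA with the reverse order of the proteases. Levels from the lowest to the highest band were 36.7, 35.0, 20.3, 12.8 and 7.86 CPM in the young, 32.1, 27.8, 14.4, 8.02 and 5.19 CPM in the control, and 39.4, 37.5, 19.1, 13.4 and 10.5 CPM in the old library. Every step went the same way in every library. Single steps have no interval here, and the young and old levels of the 2 lowest bands lay close together. The lowest band was 4.67-fold (interval 3.44 to 6.46), 6.19-fold (3.76 to 10.9) and 3.76-fold (2.15 to 7.31) above the highest. With whole groups set aside the old value was 2.04-fold. The gene overlaps Nqo2, Ripk1 and 1110046J04Rik on the other strand.

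Slpi encodes secretory leukocyte protease inhibitor, which blocks elastase and cathepsin G, and lies at chr2:164354070-164389095 on the minus strand. Its lowest levels were in the middle bands. They were 423.0, 386.4, 238.4, 239.6 and 258.3 CPM in the young library, 295.7, 268.7, 184.9, 161.7 and 242.4 CPM in the control, and 593.0, 487.5, 230.5, 233.6 and 264.1 CPM in the old. The lowest band was 1.64-fold above the highest in the young (interval 1.55 to 1.74), 1.22-fold in the control (1.13 to 1.32) and 2.25-fold in the old library (2.004 to 2.524), past the 2-fold limit in the old library alone. With whole groups set aside the old value was 1.08-fold and under the limit.

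Wfdc21 (chr11:83746940-83752642, plus strand) encodes a small secreted protein with a whey acidic protein fold, the fold of Slpi, and its protease target is less well defined. It was an abundant mRNA and was lower at each step toward the Mpo-rich cells. Levels were 7009, 6640, 4269, 2876 and 2010 CPM in the young, 7718, 7208, 4667, 2932 and 2346 CPM in the control, and 7829, 7435, 5407, 4002 and 3407 CPM in the old library. The lowest band exceeded the highest 3.49-fold, 3.29-fold and 2.30-fold. The old value was under the limit with whole groups set aside (1.40-fold), with bands of equal cell numbers (log2 0.90) and with bands by Elane (log2 0.99). Across the 15 combinations of band and library its pattern was most like those of Lcn2 (Pearson r = 0.996 of log2 levels), Chil1 (0.993) and Rasgrp4 (0.989) among 2793 genes. These points share libraries and bands and give no test.

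Cst3 (chr2:148871722-148875692, minus strand), which encodes cystatin C, a secreted inhibitor of cathepsins B, H, L and S, went with the proteases but over a small range. It was at 448.6, 478.4, 631.6, 719.5 and 776.9 CPM in the young, 401.4, 418.5, 502.3, 572.8 and 675.7 CPM in the control, and 361.2, 397.6, 573.5, 606.0 and 749.6 CPM in the old library. The lowest band was 1.73-fold, 1.68-fold and 2.08-fold below the highest, and the log2 differences of -0.79, -0.75 and -1.05 lay near those of the median gene. Without the 50 top genes they were 0.05, 0.09 and -0.30, and with whole groups set aside the old value was -2.14. Among its targets, Ctsb was 1.73- to 2.04-fold lower in the lowest band, while Ctsh, a cathepsin, was 2.74-fold, 3.16-fold and 4.50-fold higher there. Ctsl and Ctss stayed at or below 19.2 CPM.

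Cst7 (chr2:150570415-150578944, plus strand) encodes cystatin F, which enters lysosomes and granules and restrains cathepsin C, the enzyme that activates the granule serine proteases. It followed Elane closely. Levels from the lowest to the highest band were 19.9, 31.1, 121.9, 286.9 and 456.4 CPM in the young, 25.5, 34.6, 128.6, 302.3 and 495.9 CPM in the control, and 22.0, 34.3, 129.2, 295.3 and 468.1 CPM in the old library, and so were 23.0-fold, 19.4-fold and 21.3-fold lower in the lowest band (37.2-fold in old with whole groups set aside). At a fixed 3000 UMIs, a Cst7 UMI was found in 69.4%, 75.6% and 69.2% of cells of the highest band and in 5.41%, 7.66% and 6.20% of the lowest. Among the young B progenitors the share was 10.3% (interval 5.46 to 17.4). Those cells had more Mpo, at 1602 CPM compared with 107.5 CPM in the lowest young band. They therefore cannot show whether Cst7 in the lowest band is background, and this was not tested. Ctsc, its target, was at 22.4 to 25.0 CPM in the highest band, and in the lowest at 6.14 CPM in the young, 4.93 CPM in the control and 16.6 CPM in the old library. The most similar patterns were those of Prss57, another granule serine protease (r = 0.996), mt-Atp6 (0.995) and Ndufb5 (0.994). For Elane itself r was 0.989.

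Because Cst7 shared the pattern of Elane and Slpi did not, the 250 bases before the RefSeq start of these genes (GRCm38.p6) are shown, in the direction of transcription. RefSeq promoter entries were matched for Elane and for 5 of the 7 inhibitors (Cst3, Cst7, Slpi, Timp2 and Serpinb6a). Capitals mark matches on either strand to the C/EBP motif TTGCNNAA or to the ETS motif GGAAGT, which was searched alone and in the longer form GAGGAAGT that contains it.
Elane, chr10:79886062-79886311, plus strand: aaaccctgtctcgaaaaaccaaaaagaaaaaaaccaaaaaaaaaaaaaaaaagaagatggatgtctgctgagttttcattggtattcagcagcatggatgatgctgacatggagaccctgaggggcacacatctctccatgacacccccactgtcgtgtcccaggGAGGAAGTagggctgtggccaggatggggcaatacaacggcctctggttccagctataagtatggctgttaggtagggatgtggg
Cst7, chr2:150570165-150570414, plus strand: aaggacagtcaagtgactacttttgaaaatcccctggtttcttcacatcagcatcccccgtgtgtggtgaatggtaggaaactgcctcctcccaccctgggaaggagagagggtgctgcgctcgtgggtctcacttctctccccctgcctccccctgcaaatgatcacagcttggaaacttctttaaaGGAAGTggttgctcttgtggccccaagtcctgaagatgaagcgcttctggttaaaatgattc
Slpi, chr2:164356508-164356757, minus strand: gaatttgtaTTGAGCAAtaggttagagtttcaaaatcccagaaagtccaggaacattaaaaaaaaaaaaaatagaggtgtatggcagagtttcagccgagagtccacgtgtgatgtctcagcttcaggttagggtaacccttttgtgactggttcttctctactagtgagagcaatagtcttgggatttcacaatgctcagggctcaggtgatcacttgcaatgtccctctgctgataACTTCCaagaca
The short ETS form had 1 match in each of the 3 windows and in none of the windows of Cst3, Timp2 and Serpinb6a, and was added after the sequences were seen. It occurs in 19.7% of the 32851 RefSeq promoter windows of this length. The longer form had a match in Elane and in no inhibitor, and occurs in 2.44% of windows. The C/EBP motif had 1 match, in Slpi, and occurs in 9.56% of windows. These are matches of letters, and binding was not measured.

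Timp2 (chr11:118301069-118355740, minus strand) encodes a secreted inhibitor of matrix metalloproteinases. It was scarce in the Mpo-rich cells and higher in the protease-poor ones, above all in the old library. Levels were 8.98, 9.63, 4.87, 4.57 and 3.01 CPM in the young, 8.29, 7.50, 4.45, 2.22 and 1.30 CPM in the control, and 30.2, 23.6, 7.18, 6.40 and 6.10 CPM in the old library from the lowest to the highest band. The lowest band was 2.98-fold (interval 1.79 to 5.25), 6.40-fold (2.42 to 23.9) and 4.96-fold (2.39 to 12.4) above the highest. The old value was 1.42-fold with whole groups set aside and the control value 2.01-fold with cells thinned to 3000 UMIs. The metalloproteinases of late granules ran the same way, with Mmp8 6.19-fold, 6.44-fold and 10.2-fold and Mmp9 7.29-fold, 6.19-fold and 7.74-fold higher in the lowest band. The gene Cep295nl overlaps Timp2 on the same strand, so reads in the overlap could have been split or lost.

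Set against Elane, 5 of the 7 inhibitors were higher at every step from the highest to the lowest Mpo band in all 3 libraries: Serpinb1a, Serpinb6a, Cst3, Wfdc21 and Timp2. Among the 6 inhibitors that reached 10 CPM in each library these were 4, and 72.6% of the 5758 genes tested did the same, since Elane itself was at least 22.6-fold lower in the lowest band. The count thus lies near that of all genes, and the values below describe the inhibitors. Serpinb1a was at 6.22, 6.43 and 8.83 UMIs per 100 Elane UMIs in the highest band of the young, control and old library and at 154, 138 and 288 in the lowest. Slpi missed 1 step, between the 2 highest bands of the control, and otherwise went from 0.901, 0.852 and 1.13 to 45.5, 23.4 and 77.4. The lowest band exceeded the highest 114- to 144-fold for Serpinb6a, 69.9- to 108-fold for Wfdc21 and 13.4- to 17.8-fold for Cst3. Cst7 stood apart, with 1.59, 1.74 and 2.01 UMIs per 100 Elane UMIs in the highest band and 2.13, 2.02 and 2.87 in the lowest, while the B progenitors had 1.54. Taking the serine protease inhibitors Serpinb1a, Serpinb6a and Slpi together against Elane, Prtn3 and Ctsg, there were 4.69, 4.48 and 5.16 inhibitor UMIs per 100 protease UMIs in the highest band and 129, 94.6 and 175 in the lowest. These are ratios of mRNA molecules captured at their 3′ ends and not of proteins.

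**Figure D2:**
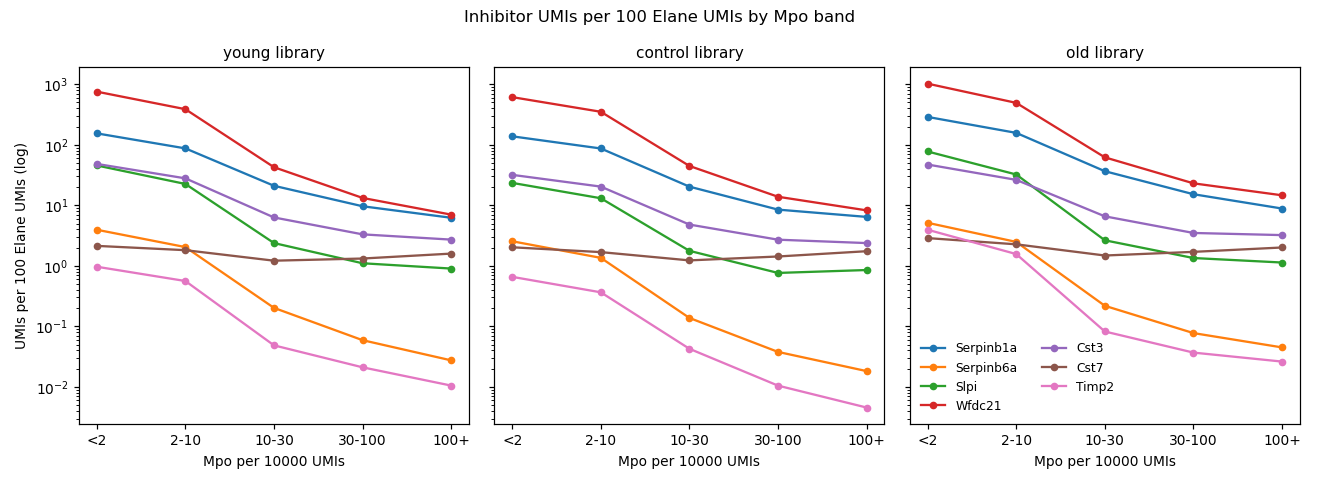
UMIs of each inhibitor per 100 Elane UMIs (log axis) in the 5 bands of Mpo UMIs per 10000 UMIs, with 1 panel per library. Cst7 stays between 1.21 and 2.87 in every band, and the other inhibitors are far higher in the bands poor in Mpo.

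Within a band, cells were ranked by Elane and the third with the least was compared with the third with the most, which gives 15 combinations of band and library. Elane in the 2 lowest bands can hold background, so the 9 combinations from the 3 bands richest in Mpo are also counted separately. In the band of 2 to under 10, Elane was 7.03-fold, 5.72-fold and 6.54-fold lower in the third with the least (young, control and old). Cst7 was 3.08-fold, 2.50-fold and 2.86-fold lower there. Mpo was also lower with the least Elane, beyond counting error in 12 of the 15 and in all 9, so the cells compared differ in Mpo as well. No inhibitor was higher with the least Elane in all 15, where 0.174% of genes were, and 1, Cst3, was lower in all 15, where 1.98% of genes were. Cst7 was lower there in 14 combinations and Cst3 in 15, in 14 and 12 of them beyond counting error, and Serpinb1a was lower beyond counting error in 13. The median log2 difference was -0.80 for Cst7, -0.26 for Cst3 and -0.17 for Serpinb1a. In the 9 combinations of the Mpo-rich bands these genes were lower beyond counting error in 9, 8 and 7. Serpinb6a was higher with the least Elane in 13 combinations, 5 beyond counting error, with a median of 0.30, and in 7 of the 9, 2 beyond counting error. Wfdc21 was higher in 12 combinations (6 of the 9) and lower in the other 3, all beyond counting error, and the 3 were the band of 100 or more in each library (log2 differences of -0.33, -0.44 and -0.56). Slpi was likewise lower with the least Elane in that band in all 3 libraries (-0.40, -0.69 and -0.43) and over the 9 was higher in 3 and lower in 6. Timp2 was higher in 11 combinations, 5 beyond counting error, and in 6 of the 9, 2 beyond counting error. The cells compared come from 1 library each time and are no replicates.

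**Figure D3:**
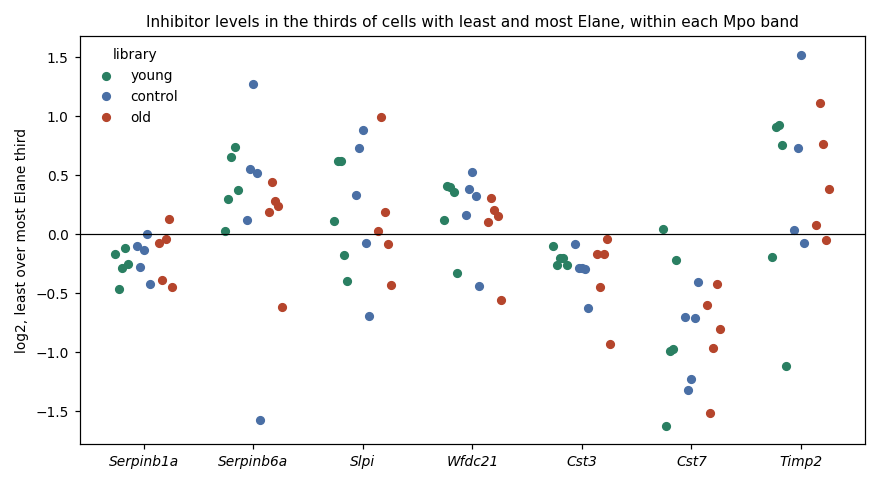
Log2 ratio of each inhibitor's level in the third of cells with the least Elane to that in the third with the most, within each of 5 Mpo bands (points of a library run from the lowest band at the left to the highest). Cst3 lies below 0 in all 15 combinations, and 1 Timp2 value (control, highest band) is not drawn because 1 of its levels was 0.

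Between libraries, levels were compared within each Mpo band and averaged over the 5 bands as log2 ratios, with a limit of 1.5-fold. Against young, 1 inhibitor was higher in old, Timp2, as were 4.63% of all genes tested, and 0 were lower, compared with 7.87% of genes. Against control, Timp2 again was higher in old, as were 5.36% of genes, and 0 inhibitors were lower, compared with 4.68%. Timp2 reached 10 CPM in the old library alone (7.70, 6.13 and 20.5 CPM in young, control and old). It thus entered both comparisons through the library where it was high, and was not tested between control and young. Between control and young 0 inhibitors were past the limit in either direction, compared with 3.20% of genes higher and 4.18% lower in control. The old library enters both of its comparisons, so they are not independent.

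Timp2 was 2.04-fold higher in old than in young and 2.98-fold higher than in control, in 5 of 5 bands each, with the difference beyond counting error in 2 and 5 of them. Control stood 1.46-fold below young. Serpinb1a was higher in old than in young and than in control in all 5 bands, each beyond counting error, by 1.40-fold and 1.33-fold on average, and control and young differed 1.05-fold. Serpinb6a (1.49-fold) and Slpi (1.48-fold) lay just under the limit between old and control, but were 1.09-fold and 1.11-fold higher in old than in young. Control differed from young by log2 values of -0.45 and -0.41 for these genes, although both libraries are labelled 3 months. Wfdc21 was higher in old in all 5 bands of both comparisons, by 1.30-fold and 1.19-fold, and its excess over young was largest in the highest band (log2 0.76) and smallest in the lowest (0.16). Cst3 and Cst7 differed by at most 1.18-fold on average in every pair of libraries. Elane was lower in old in all 5 bands, by log2 values of -0.26 against young and -0.40 against control. The other 2 serine proteases did not share this. Ctsg was higher in old in all 5 bands, by 0.92 against young and 0.58 against control. Prtn3 was higher than in young in all 5 bands, by 0.42, and differed from control by -0.068. The old library was also the deepest, at a median of 12690 UMIs per kept cell compared with 10174.5 in young and 9560.5 in control, and its highest band held the fewest cells. The part of depth in these differences was not tested beyond thinning, under which Serpinb6a and Slpi passed the limit against control.

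**Figure D4:**
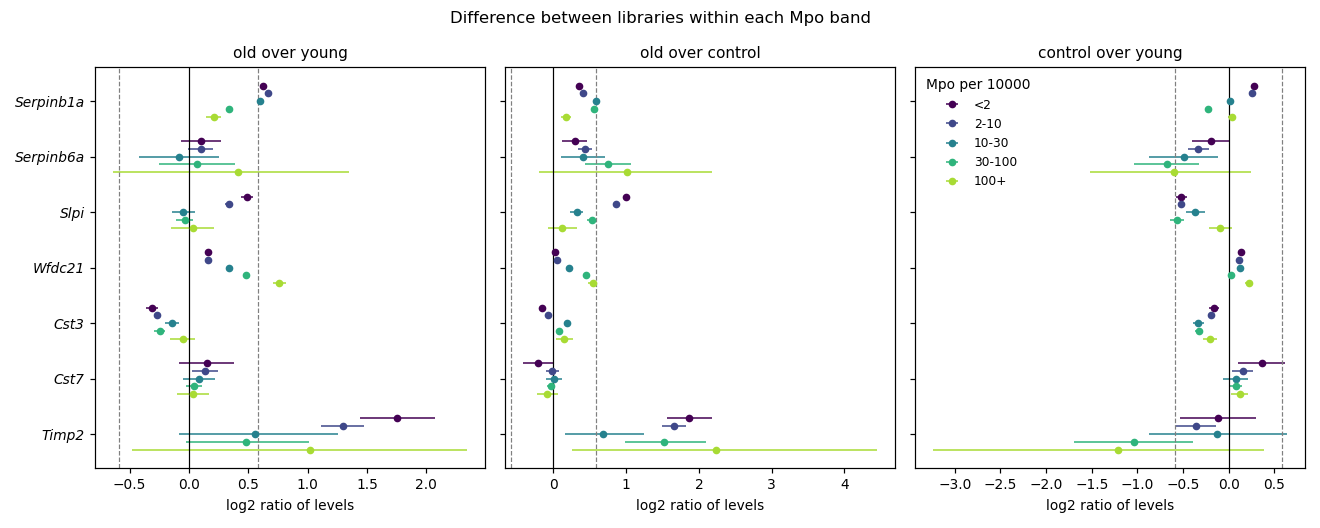
Log2 ratio of levels between libraries (x axes differ in range) for each inhibitor in the 5 Mpo bands, with exact 95% intervals. Dashed lines mark 1.5-fold. Timp2 in old lies right of 0 in every band against both other libraries, with wide intervals in the Mpo-rich bands.

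The protease-poor cells of the 3 libraries differed in an mRNA of maturation. Retnlg, an mRNA of late neutrophil maturation, was at 999.8 CPM in the lowest Mpo band of the young, 670.8 CPM of the control and 2460 CPM of the old library. Cells with under 10 Mpo UMIs per 10000 were therefore divided into 3 classes of Retnlg per 10000 UMIs: under 5, 5 to under 50, and 50 or more. The lower edge lies near levels found in other cells. Before the limits on UMIs, Retnlg was at 619.5 CPM in the young B progenitor cluster. It was at 419.6, 424.5 and 664.4 CPM in the young, control and old clusters with the most Elane. The 2 lower classes can thus be separated in part by background, which was not tested. The class of 50 or more held 228 young cells (5.11% of the low-Mpo cells), 197 control cells (2.80%) and 911 old cells (12.4%), and its cells had fewer UMIs, with medians of 4901, 4474 and 6674.

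Timp2 and Slpi were the inhibitors that differed most over the Retnlg classes. Timp2 was at 5.41, 8.52 and 93.2 CPM over the 3 classes in the young library, at 4.73, 17.7 and 108.1 CPM in the control, and at 9.66, 21.4 and 130.7 CPM in the old, a 17.2-fold, 22.9-fold and 13.5-fold difference between the outer classes. Mmp9 differed 21.9-fold, 22.6-fold and 25.4-fold over the same classes. Slpi was at 308.5, 424.5 and 1711 CPM in the young, 229.5, 431.0 and 1776 CPM in the control, and 280.3, 455.1 and 2103 CPM in the old library, a difference of 5.55-fold, 7.74-fold and 7.50-fold. Serpinb1a went the other way and was 1.56-fold, 1.74-fold and 1.58-fold lower in the highest class. For Serpinb6a the counting interval of this difference held 0 in all 3 libraries, and Wfdc21 was 1.31- to 1.46-fold higher in the highest class.

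Library differences were also compared within Retnlg classes, of which the 2 lower ones need not match cells of equal maturity. Old exceeded control in Timp2 by log2 values of 1.03 (interval 0.79 to 1.27), 0.27 (-0.02 to 0.58) and 0.27 (-0.01 to 0.57) from the lowest to the highest class, compared with 1.87 in the lowest Mpo band as a whole. Against young the values were 0.83, 1.33 and 0.49. For Slpi, old exceeded control by 0.29, 0.08 and 0.24, compared with 1.004 in the lowest Mpo band. The Retnlg classes hold the cells of the 2 lowest Mpo bands, so these values of the lowest band cover only a part of the same cells. Against young, Slpi was lower in old in the lowest class, by a log2 value of -0.14 (interval -0.18 to -0.09), and higher in the others (0.10 and 0.30). The excess of Serpinb1a in old was as large within the classes, at 0.67, 0.75 and 0.66 against young and 0.45, 0.58 and 0.59 against control.

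**Figure D5:**
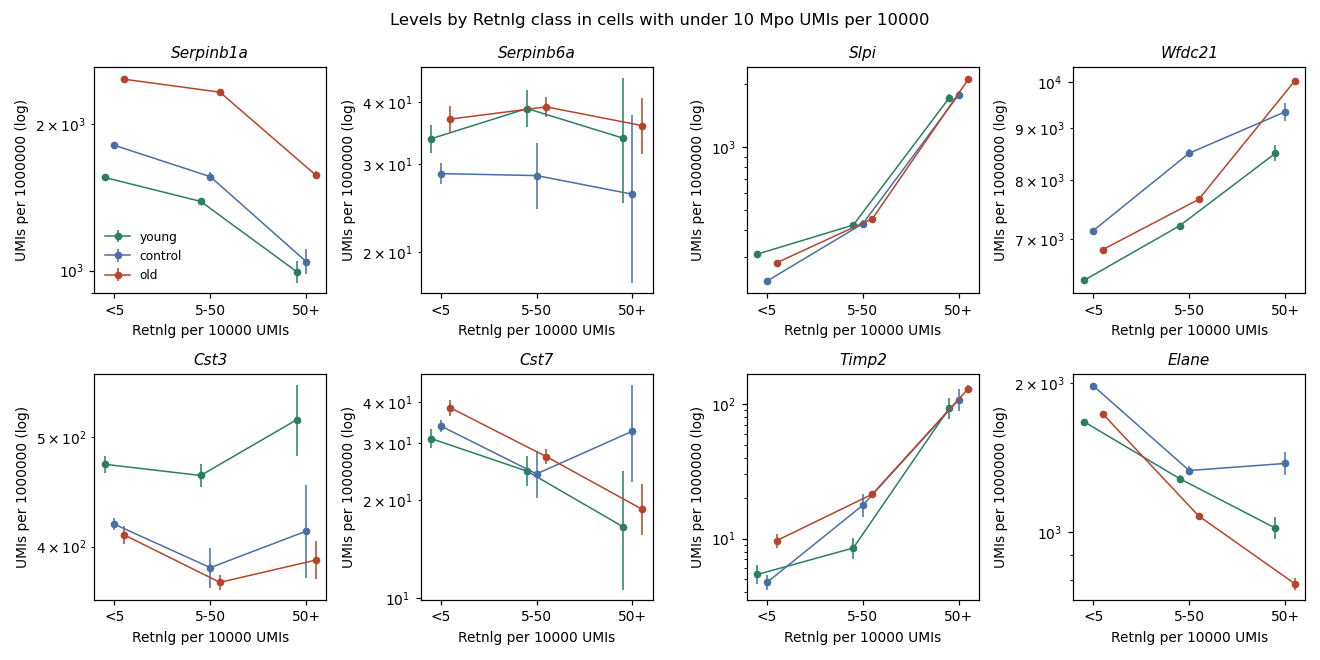
UMIs per 1000000 UMIs (log axes) of the 7 inhibitors and of Elane in 3 classes of Retnlg per 10000 UMIs, among cells with under 10 Mpo UMIs per 10000, with 95% Poisson intervals, for each library. Timp2 and Slpi are at their highest in the class of 50 or more in all 3 libraries, and Serpinb1a is at its lowest there.

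Of 46 other protease inhibitor genes listed, 12 reached 10 CPM in a library and 11 had 0 UMIs in all 3. Between bands, 4 of the 8 that could be compared were at least 2-fold higher in the lowest band, where 4.22% of all genes tested were. These were the stefins Stfa1 and BC100530, the WAP gene Wfdc17 and the calpain inhibitor Cast. Lower were 2, Serpine2 and Spint2, as were 31.6% of genes. Against young, 7 of 12 were higher in old and 1 was lower (Serpinb10), compared with 4.63% and 7.87% of all genes tested. Against control 6 of 11 were higher and 0 lower, compared with 5.36% and 4.68% of genes. Apart from Wfdc17 and Reck, those higher in old were all stefin A genes, so they are not separate results. Reck was under the limit against control (1.34-fold). BC100530, a stefin A gene that codes for a cysteine protease inhibitor, was at 16.7, 13.5 and 411.9 CPM in the young, control and old cells, Stfa1 at 33.0, 37.3 and 338.7 CPM, and Wfdc17 at 19.8, 11.2 and 371.1 CPM. Averaged over bands, BC100530 was 23.5-fold and 23.4-fold higher in old than in young and control. In the lowest Retnlg class it was at 12.4, 16.6 and 255.7 CPM and in the highest at 135.3, 74.6 and 1620 CPM, so that old was above the others in both. The stefin A genes are near copies of each other, and reads may be split among them. Stfa2, Stfa2l1 and Stfa3 were also past the limit in old. They reached 10 CPM in the old library alone (41.1, 77.0 and 44.8 CPM), so they entered both comparisons through the library where they were high. Likewise Serpinb10 entered the comparison of old with young through the young library alone (11.5 CPM, and 3.91 CPM in old). Control and young differed from each other past the limit in Reck, Serpinb10 and Wfdc17.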

How the data were processed

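CD133+ bone marrow cells of 3 pooled mice per library were sequenced with the 10x Chromium 3′ kit (version 2). Per the labels, the authors used STAR and Cell Ranger 2.1.0. The deposited matrices hold raw counts of UMIs per gene and cell, without normalization. Cell barcodes carry a different suffix in each library, which can arise when libraries are combined, and whether reads were subsampled in that step is not given in the sources used here.

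Cells with at least 200 genes, at most 20% mitochondrial UMIs and a UMI count between the 5th and 95th percentile (control alone, young and old together) were kept. A cell was set aside when it had UMIs of at least 3 different markers of another blood cell type, or when it was in a Leiden group with 3 such markers at 10 CPM and 10-fold in which at least 50% of cells carried 2. The plan was to set aside whole groups. That rule took in large neutrophil groups, so the rule by cell was chosen after seeing the groups, and the planned rule is given as an alternative. Members, targets and other listed inhibitors were held out of clustering. Doublets were not removed.

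UMIs were summed per library and band and scaled to 1000000 (CPM). Ratios over all genes had 0.5 UMI added to each sum. Genes needed 10 CPM in the lowest or highest band of each library (bands), or in either library, at limits of 2-fold and 1.5-fold. Intervals were Poisson for levels, conditional binomial for ratios and Clopper-Pearson for shares of cells. For shares, cells were thinned to 3000 UMIs, which left out 0 cells. The steps were tested on simulated data with known answers. Gene positions came from GENCODE M21. The genes named were the members, their target proteases, other inhibitors with at least 10 CPM, and the 3 genes most like each member among those with at least 50 CPM. Members, lists and limits were chosen with earlier results of these data known. Clustering and Scrublet scores were made with scanpy 1.11.5 and leidenalg 0.10.2, intervals with scipy 1.17.1, and figures with matplotlib 3.10.9, in Python 3.11.15.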

Additional observations from a re-analysis of the deposited data

Results flagged for a closer look

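Cst3 was higher in some of the cells set aside than in any Mpo band of the same library. It was at 2704 CPM (95% interval 2654 to 2755) in 442 young cells with monocyte markers, at 1535 CPM (1447 to 1628) in 70 old ones and at 1871 CPM (1787 to 1958) in 118 young cells with markers of dendritic cells. In 45 control cells with monocyte markers Cst3 was at 1608 CPM. No other type with at least 10 cells exceeded the highest band of its library in Cst3, the control and old cells with markers of dendritic cells included. Ctsc, the gene of cathepsin C, was at 560.6 CPM in the same young monocyte-marker cells. Timp2 was at 28.4 CPM (18.9 to 41.1) in the young cells with markers of dendritic cells, from 28 UMIs. These cells are outside the comparisons of bands and libraries, and that is why they are listed here.

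The difference of Serpinb1a between the lowest and the highest Mpo band had opposite directions in the libraries, with log2 values of -0.31 in the young, -0.074 in the control and 0.10 in the old library. The difference between libraries was not tested, since each condition is 1 library, and without the 50 top genes all 3 values were above 0. With whole cell groups set aside the old value was -0.65, so that the direction then no longer differed.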

How the results depend on the processing

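No paired analysis was possible because each condition is 1 library, and for the same reason no replicate could be left out. Results were recomputed under 13 other settings in total, 2 of them chosen after seeing the data. Counts between bands were recomputed under 11, counts between libraries under 12 and the counts that use Elane under 9. Of 76 counts, 58 stayed within 1.5 times. Of 462 values of single inhibitors, 192 moved beyond counting error, 36 by over 1.5 times, and 23 changed sign, all of them from a size under the limit. Old against control gave 2 inhibitors without a percentile limit on UMIs, with bands of equal cell numbers and with bands by Elane, 3 with cells thinned to 3000 UMIs, 4 with unscaled UMIs per cell or with whole cell groups set aside, and 0 with pooled sums at a limit of 2-fold and 50 CPM. Old against young gave 2 with bands of equal cell numbers and with whole groups set aside, 3 with unscaled UMIs and 0 with pooled sums. Control against young gave 1 without a percentile limit (Timp2 lower) and 1 with thinned cells (Serpinb6a lower). Shares over all genes were not computed for these library counts, so the counts are no result about the inhibitors. Unscaled UMIs also leave in the greater depth of the old library. With bands of equal cell numbers or whole groups set aside, 1 inhibitor, Serpinb6a, was higher in the lowest band, as were 2.58% and 2.73% of all genes tested. In the latter setting the highest old band held 24 cells, and Serpinb1a was past the limit in both comparisons with old. With bands by Elane the count stayed at 2, but as Serpinb6a and Timp2, without Wfdc21, where 3.77% of all genes tested were higher. With unscaled UMIs or a limit of 1.5-fold, 2 were lower there, Cst3 and Cst7. Of all genes tested, 42.8% were lower with unscaled UMIs, and the share at 1.5-fold was not computed. With bands of equal cell numbers 2 inhibitors, Serpinb6a and Wfdc21, were higher with the least Elane in all 15 combinations, and the share of all genes was not computed there. The cause of these moves was not tested. Depth limits Timp2, which in the highest control band rests on 4 UMIs.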
